A study of Homo sapiens with 6 samples.

Results

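Epithelial cells hold to their neighbours through adherens junctions, where cadherins such as E-cadherin (CDH1) join cells and bind catenins inside them, and through tight junctions, where claudins and occludin (OCLN) seal the space between cells and the scaffold ZO-1 (TJP1) ties them to actin. EPCAM is an epithelial surface adhesion protein that binds claudin-7, and ESRP1 and ESRP2 are RNA-binding proteins that set the epithelial form of many transcripts. Loss of this set, led by CDH1, is a known mark of a shift towards a mesenchymal state in carcinomas. The 10 genes described here are CDH1, EPCAM, CLDN1, CLDN4, CLDN7, OCLN, TJP1, ESRP1, ESRP2 and CDH3. They were taken by symbol from tables of 23686 genes, and all 10 were found.

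RNA sequencing was done on 6 libraries from A427 and HCC15, human non-small cell lung carcinoma lines whose genotype is labelled WT. In each line there was 1 library for each of a control siRNA labelled Tax, LGR6 siRNA 2 and LGR6 siRNA 4, collected 48 h after transfection, with medium holding 5% FBS. LGR6 encodes a cell-surface receptor of R-spondins, which strengthen Wnt signalling. The labels give neither a clone nor whether the libraries came from separate cultures. Totals ranged from 25546438 to 28987906 reads.

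No line and siRNA had a second library. Every test below therefore measures a difference against the disagreement of the lines over an siRNA, or of the siRNAs within a line, and not against a spread between replicates. All were edgeR quasi-likelihood tests over the 14481 genes that reached 10 reads in 2 or more libraries. A gene passed where its p, adjusted by Benjamini-Hochberg over those genes, was below 0.05. All 10 genes passed that filter, ESRP1 only through A427, where it was high. Ratios between single libraries carry exact 95% intervals that cover counting error only.

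LGR6 itself had 257 control reads in HCC15, 39 reads after siRNA 2 and 77 after siRNA 4. That left 14.0% (9.72 to 19.7) of the control level with siRNA 2 and 30.7% (23.5 to 39.8) with siRNA 4. In A427 the counts were 5, 0 and 0, and the intervals for what was left reached 122% and 116%. A fall of LGR6 was thus measured in HCC15 and was not detectable at this depth in A427. The simple epithelial keratins KRT7, KRT8, KRT18 and KRT19 summed to 583 to 803 TPM in A427, where 2 of the 4 reached 1 TPM, and to 4200 to 9280 TPM in HCC15, where all 4 did. Summed fibroblast markers stayed at or under 11.6 TPM, leukocyte markers at or under 3.25 and endothelial markers at or under 0.33, with DCN, CD3E and LYZ at 0 reads in all libraries.

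The lines carried different junction repertoires. In A427, levels per transcript length (TPM) ran from CLDN1, EPCAM, TJP1 and CLDN7 through OCLN, ESRP1 and ESRP2 down to CDH3, CDH1 and CLDN4. In HCC15, TJP1 stood first and CLDN4, EPCAM, CDH1, OCLN, ESRP2, CLDN7 and CLDN1 followed, each overlapping the next in its range over 3 libraries up to CLDN1, with CDH3 and ESRP1 below them. In A427 the ranges of TJP1 and CLDN7 overlapped, as did those of OCLN, ESRP1 and ESRP2 in turn, and the other neighbours were apart. Between HCC15 and A427 all 10 genes passed the test, 3 higher and 7 lower in HCC15. Of all tested genes 76.5% passed, 37.2% higher and 39.3% lower, so the count of calls by itself does not set the set apart. The median log2 fold change was -2.17 over the 10 genes and -0.03 over all tested genes. For 9 of the 10 the libraries of the lines did not overlap, against 68.1% of tested genes. TJP1 was the one that did. ESRP1 passed the filter on reads only through A427, where it was high, so its place in these counts and the median is no support. The 10 genes were also chosen with earlier results of these data known.

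**Figure D1:**
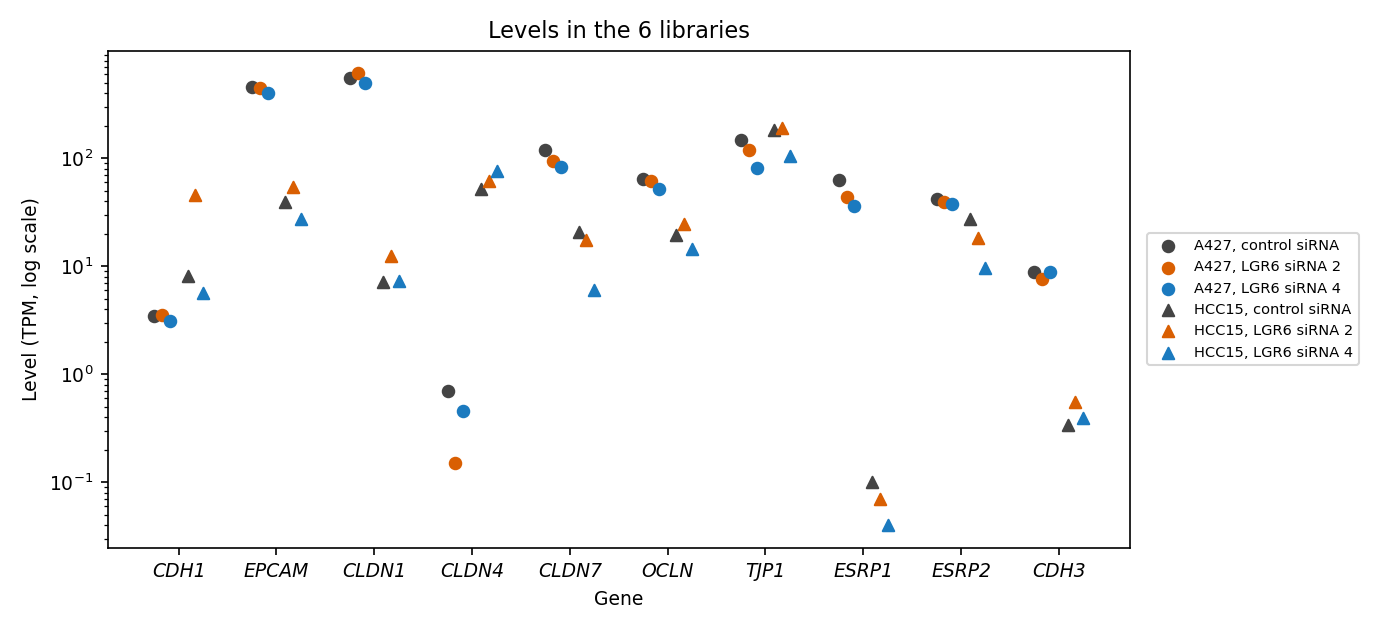
Level of each gene in TPM (log axis) in the 6 libraries, 1 point per library: circles are A427, triangles HCC15, and colours the siRNA. CLDN1 and ESRP1 lie far lower in HCC15, CLDN4 far higher, and CDH1 in HCC15 has 1 high point, with LGR6 siRNA 2.

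The cadherins changed places between the lines. CDH1 in A427 was 3.43 TPM in the control library, 3.52 with siRNA 2 and 3.11 with siRNA 4, from 191 to 223 reads. In HCC15 it was 8.16 with the control, 45.97 with siRNA 2 and 5.64 with siRNA 4, from 513, 2919 and 362 reads. All 3 HCC15 libraries were above all 3 of A427, and the HCC15 library with siRNA 2 stood far above the rest. CDH1 was higher in HCC15 by a log2 fold change of 2.08 (SE 0.46, edgeR adjusted p = 0.00299). Without the siRNA 2 library of HCC15 the difference was 1.20, and without that of A427 it was 1.19. These fits are the same check, since an siRNA 2 library without its partner says nothing about the lines. Both rest on the control and siRNA 4 libraries.

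P-cadherin, CDH3, a classical cadherin of basal epithelial layers, went the other way. Its levels were 8.82, 7.66 and 8.88 TPM in A427 (control, siRNA 2, siRNA 4) and 0.34, 0.55 and 0.39 TPM in HCC15, from 19 to 31 reads. The log2 fold change was -4.20 (SE 0.21, edgeR adjusted p = 5e-07).

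EPCAM was abundant in A427 at 457, 448 and 403 TPM, and lower in HCC15 at 39.2, 53.9 and 27.6 TPM. The lines did not overlap, and EPCAM was 10.5-fold lower in HCC15 (log2 fold change -3.39, SE 0.14, edgeR adjusted p = 1.79e-07).

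The claudins, which set how tight and how ion-selective a tight junction is, split between the lines. CLDN1 was the highest of the 10 in A427 at 556, 612 and 502 TPM and stood at 7.21, 12.5 and 7.34 TPM in HCC15, a log2 fold change of -5.89 (SE 0.15, edgeR adjusted p = 1.09e-08). CLDN7 was 119, 93.7 and 83.8 TPM in A427 and 20.7, 17.5 and 6.01 TPM in HCC15 (log2 fold change -2.81, SE 0.23, adjusted p = 6.77e-06). CLDN4 was the reverse, at 0.70, 0.15 and 0.46 TPM in A427, from 16, 3 and 10 reads, and 51.6, 61.8 and 75.9 TPM in HCC15.

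No library of one line reached the range of the other for any of these claudins. The log2 fold change of CLDN4 was 7.21 (SE 0.27, edgeR adjusted p = 9.95e-08). Between the control libraries alone CLDN4 was 78.8-fold higher in HCC15 (48.3 to 138), and CLDN1 was 1.39% of the A427 level (1.24 to 1.55).

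OCLN, a membrane protein of the tight junction strand, was 64.0, 61.9 and 52.4 TPM in A427 and 19.7, 24.4 and 14.6 TPM in HCC15, 2.90-fold lower (log2 fold change -1.54, SE 0.11, edgeR adjusted p = 3.16e-06). Its deposited counts were not whole in any of 6 libraries, unlike those of the other 9 genes. RSEM gives such values where reads match more than 1 place, so the values of OCLN are uncertain to that extent. TJP1 was 148, 120 and 81.2 TPM in A427 and 184, 192 and 105 TPM in HCC15. Its difference between the lines was the smallest of the 10, 1.47-fold higher in HCC15 (log2 fold change 0.56, SE 0.10, adjusted p = 0.000804), and the lines overlapped.

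The splicing regulators were unequal. ESRP1 was 63.4, 44.2 and 36.4 TPM in A427 and 0.10, 0.07 and 0.04 TPM in HCC15, from 5, 3 and 2 reads. ESRP2 was present in both, at 41.7, 39.1 and 37.8 TPM in A427 and 27.2, 18.3 and 9.56 TPM in HCC15. HCC15 thus held ESRP2 with ESRP1 close to 0, and A427 held both. The log2 fold change was -9.31 for ESRP1 (SE 0.20, edgeR adjusted p = 4.51e-09), with the control libraries at 0.175% (0.0569 to 0.409), and -1.12 for ESRP2 (SE 0.21, adjusted p = 0.00123). On log2(TPM + 1), where the pseudocount pulls low values together, the differences were -5.48 for ESRP1, 5.48 for CLDN4 and -2.73 for CDH3, each past the threshold in limma.

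Most of the other tight junction genes were also lower in HCC15. Of 21 tested, 3 were higher, 15 lower and 3 did not pass, with a median log2 fold change of -2.11. CRB3, an apical polarity protein, was lower by 5.39 on the log2 scale (SE 0.34, edgeR adjusted p = 1.59e-06), and CGNL1, a junctional scaffold, was higher (7.29, SE 0.22, adjusted p = 3.14e-08). Of 10 other claudins tested, 3 were higher, 5 lower and 2 did not pass, with CLDN6 lower (log2 fold change -4.96, SE 0.30) and CLDN23 higher (2.48, SE 0.27). Of 13 other adherens junction genes 5 were higher, 5 lower and 3 did not pass (median 0.16), and of 11 desmosome genes 3 were higher and 8 lower (median -1.02). Of the adherens junction genes, CDH2, the N-cadherin gene of mesenchymal and neural cells, was higher in HCC15 (2.13, SE 0.26, edgeR adjusted p = 9.59e-05). PVRL3 of the same list was lower (-4.98, SE 0.12, edgeR adjusted p = 8.89e-09). CTNNA2 was lower too, at 6.36, 4.90 and 5.00 TPM in A427 and 0 reads in HCC15.

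**Figure D2:**
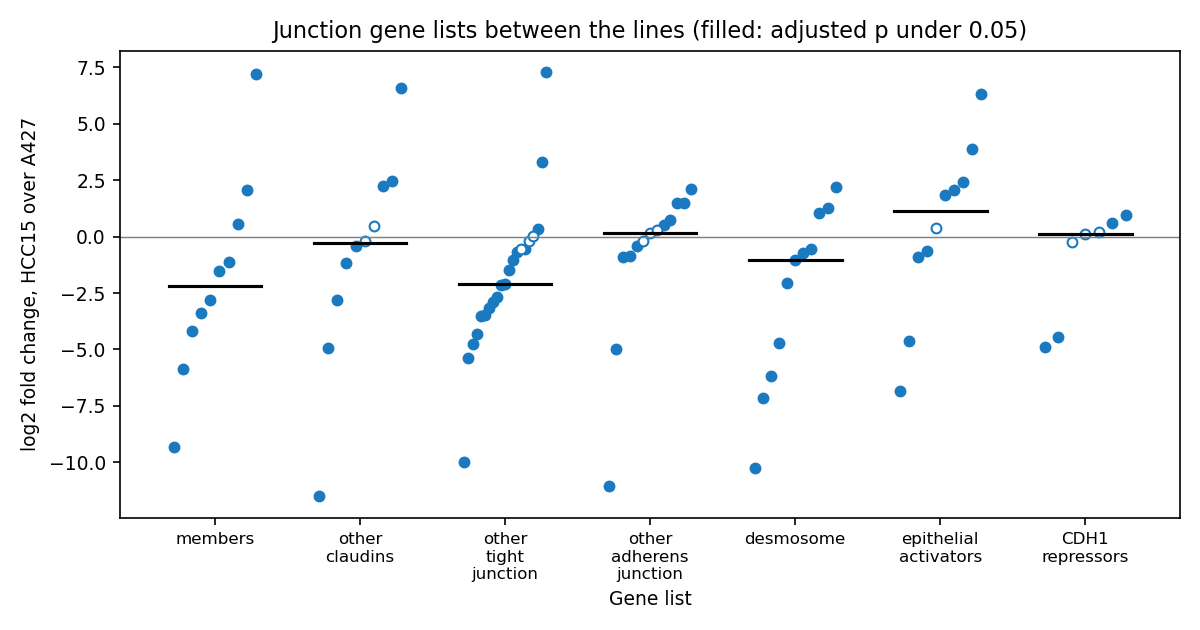
log2 fold change of HCC15 over A427 for each tested gene of 7 lists, 1 point per gene, filled where the edgeR adjusted p was under 0.05, with a bar at the median of the list. The members and the other tight junction genes have medians of -2.17 and -2.11, and each list holds genes on both sides of 0.

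Known repressors of CDH1 did not share 1 direction between the lines. Of 7 tested, 2 were higher in HCC15, 2 lower and 3 did not pass (median 0.11). ZEB1 was higher in HCC15 (0.94, SE 0.14, edgeR adjusted p = 0.000336), at 9.0, 10.9 and 11.7 TPM in A427 and 15.7, 16.3 and 25.6 TPM in HCC15. TWIST1 was lower (-4.47, SE 0.22, adjusted p = 4.68e-07), at 22.1 to 34.5 TPM in A427 and 0.89 to 1.74 in HCC15. SNAI1 was 4.81 to 5.68 TPM in A427 and 6.13 to 8.71 TPM in HCC15. SNAI2 had at most 7 reads in any library and was not tested.

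Factors that promote the epithelial state were uneven. Of 10 tested, 5 were higher in HCC15, 4 lower and 1 did not pass (median 1.12). GRHL2, an activator of CDH1 and claudin genes, had 0 reads in all 6 libraries. KLF4 was higher in HCC15 (3.89, SE 0.18, edgeR adjusted p = 3.19e-07). Of 5 other regulators of epithelial and mesenchymal splicing 4 were higher and 1 was lower, with RBM47 up (4.13, SE 0.12) and MBNL1 down (-1.81, SE 0.11). Of 11 mesenchymal genes 5 were higher and 6 lower (median -0.59). VIM, the intermediate filament of mesenchymal cells, ran at 4382 to 5551 TPM in A427, beside the high CLDN1 and EPCAM, and at 1355 to 1605 TPM in HCC15. All 4 simple keratins were higher in HCC15 (median 4.77).

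ZEB and SNAI proteins are known to bind E-box letters CACCTG, read as CAGGTG on the other strand. These letters were searched on both strands in RefSeq promoter windows (GRCh38.p14, 250 bases before to 50 after a start), which covered CLDN1, CLDN4, CLDN7, OCLN and TJP1, 5 of the 10 genes. One CLDN7 window held 5 matches and its other window 0, both OCLN windows held matches (1 and 2), 1 of 4 TJP1 windows held 1, and the CLDN1 and CLDN4 windows held 0. The CLDN7 window with 5 matches lay in UTR annotated by GENCODE over all 300 of its bases, as did the OCLN window with 1 match and the CLDN4 window, and the TJP1 window with a match held 0 UTR bases. Of 35116 windows, 20.6% held at least 1 match, 3.49% at least 2 and 0.094% at least 5. Matches are printed for CLDN7, the claudin of the set that lay below control in every LGR6 siRNA library, and for TJP1. The CLDN7 match that lies after the start and the OCLN matches are not printed. A stretch before the start of CLDN1 is printed because CLDN1 had the largest drop of these claudins from A427 to HCC15. Capitals mark the letters, and a match is a description of the sequence only.
CLDN7, chr17:7262635-7262664, minus strand: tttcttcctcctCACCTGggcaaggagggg
CLDN7, chr17:7262596-7262625, minus strand: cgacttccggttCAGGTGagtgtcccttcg
CLDN7, chr17:7262481-7262510, minus strand: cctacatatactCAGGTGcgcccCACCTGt
TJP1, chr15:29969120-29969149, minus strand: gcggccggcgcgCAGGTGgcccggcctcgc
CLDN1, chr3:190322476-190322696, minus strand, with no match: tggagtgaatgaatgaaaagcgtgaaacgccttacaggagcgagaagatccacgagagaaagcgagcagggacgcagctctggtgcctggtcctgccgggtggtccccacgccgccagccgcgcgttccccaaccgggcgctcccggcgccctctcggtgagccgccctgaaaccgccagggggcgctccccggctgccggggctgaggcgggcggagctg

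With LGR6 siRNA 2, none of the 10 genes passed the test against the control siRNA over both lines, where 7.62% of all genes passed (edgeR; 3 of the 10 were at an unadjusted p under 0.05, and DESeq2 and limma called 0). CDH1 had the largest difference, a log2 fold change of 1.51 (SE 0.54, adjusted p = 0.128), and it came from 1 library. In HCC15 CDH1 with siRNA 2 was 525% of control (477 to 577), and in A427 it was 101% (83.0 to 123). Without the A427 library with siRNA 2 the log2 fold change was 2.46, and without that of HCC15 it was -0.07. Each of these fits holds 1 library with siRNA 2, so it has no measure of spread for that siRNA.

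In that HCC15 library other adhesion genes were also above the control. CLDN1 was at 162% (141 to 186), EPCAM at 128% (117 to 140), OCLN at 115% (108 to 123) and CLDN4 at 112% (103 to 121). TJP1 was at 97.9% (95.8 to 100), CLDN7 at 79.5% (68.2 to 92.6) and ESRP2 at 62.7% (57.7 to 68.1). The epithelial genes of this library thus did not move together. In the same library KRT19 was 36.7 TPM against 24.9 in the control, KLF4 was 22.7 against 15.9 and CDH2 was 9.02 against 4.94. Of the CDH1 repressors there, ZEB2 was 1.24 TPM against 2.02 (146 against 240 reads) and SNAI1 was 6.98 against 8.71 (144 against 178 reads), both below control. ZEB1 was 16.3 against 15.7, TCF3 109 against 91.7, TWIST2 5.52 against 2.90. TWIST1 had 35 reads against 20 and TCF4 34 against 27. The repressors thus lay on both sides of the control. The part of these genes in the CDH1 level was not tested.

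In A427 with siRNA 2 several of the genes lay close to the control level, with EPCAM at 96.1% (93.3 to 98.9), CLDN1 at 108% (106 to 110), OCLN at 94.9% (91.2 to 98.7) and ESRP2 at 92.0% (86.5 to 97.9). ESRP1 was at 68.5% (64.7 to 72.5), CLDN7 at 77.6% (72.7 to 82.7) and TJP1 at 79.7% (77.6 to 81.7). CLDN4 was at 20.9% (3.9 to 72.9), from 3 reads against 16. The log2 fold changes over both lines were -0.56 for ESRP1 (adjusted p = 0.091) and 0.37 for CLDN1 (adjusted p = 0.181) in edgeR.

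**Figure D3:**
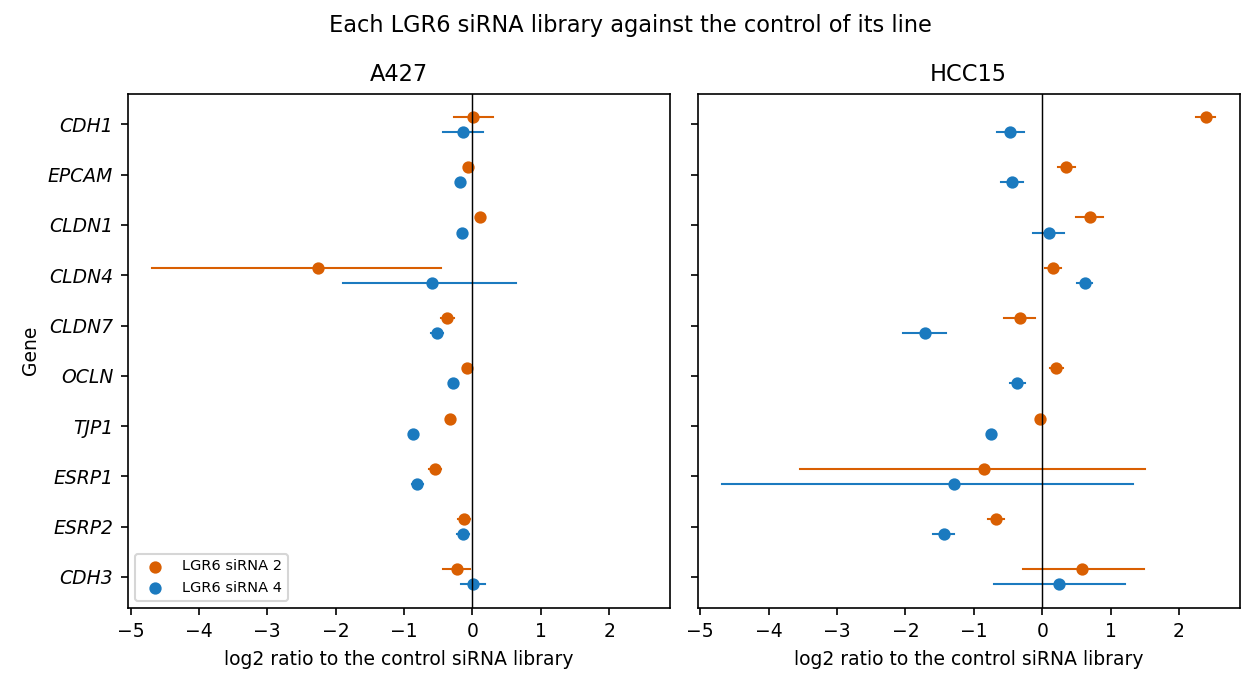
log2 ratio of each LGR6 siRNA library to the control library of its line, A427 on the left and HCC15 on the right, with exact 95% counting intervals as bars, 1 library per point. CDH1 with siRNA 2 in HCC15 (525% of control) stands alone on the right, and CLDN7 and ESRP2 with siRNA 4 in HCC15 (30.6% and 36.9%) lie far to the left.

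With LGR6 siRNA 4, 2 of the 10 genes fell and 0 rose over both lines, where 12.5% of all genes passed and 7.95% passed as lower. TJP1 fell to 54.7% of control in A427 (53.2 to 56.3) and to 59.6% in HCC15 (58.2 to 61.1), a log2 fold change of -0.81 (SE 0.12, edgeR adjusted p = 0.00544). ESRP1 fell by 0.82 on the log2 scale (SE 0.17, adjusted p = 0.0203). That value rests on A427, at 57.3% of control (54.0 to 60.7), since HCC15 had 2 reads against 5. The median log2 fold change was -0.31 over the 10 genes and -0.01 over all genes.

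Each call was lost when certain single libraries were left out, with fewer samples in the fit. For TJP1 the adjusted p was 0.119 without the A427 control (log2 fold change -0.69), 0.0827 without the HCC15 control (-0.91) and 0.0828 without siRNA 4 in HCC15 (-0.79). For ESRP1 it was 0.58 without the A427 control (-1.14), 0.511 without siRNA 4 in A427 (-1.13), 0.146 without the HCC15 control (-0.80) and 0.0963 without siRNA 4 in HCC15 (-0.80). The only control library left without the A427 control was that of HCC15, with 5 ESRP1 reads (SE 0.899). The only siRNA 4 library left without that of A427 was that of HCC15, with 2 reads (SE 0.998). The size of the ESRP1 fall in both of these fits is thus uncertain. The fits without an HCC15 library rest on A427, as the main value does. In limma on log2(TPM + 1) and log2(TPM + 0.1) ESRP1 had adjusted p values of 0.239 (-0.43) and 0.147 (-0.66).

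CLDN7 and ESRP2 had differences of like size with siRNA 4 that missed the threshold. CLDN7 was at 69.8% of control in A427 (65.4 to 74.5) and 30.6% in HCC15 (24.5 to 37.9), a log2 fold change of -0.95 (SE 0.27, edgeR adjusted p = 0.0522, DESeq2 adjusted p = 0.00816). Its log2 fold change was -1.72 without siRNA 4 in A427, where HCC15 held the only siRNA 4 library, and -1.27 without the A427 control. It was -0.75 without the HCC15 control, -0.50 without siRNA 4 in HCC15 and -0.99 with either siRNA 2 library left out. In limma on log2(TPM + 1) and log2(TPM + 0.1) CLDN7 missed the threshold (adjusted p = 0.0627 and 0.0787). ESRP2 was at 90.7% in A427 (85.3 to 96.4) and 36.9% in HCC15 (33.2 to 40.8), a log2 fold change of -0.76 (SE 0.26, edgeR adjusted p = 0.0956, DESeq2 adjusted p = 0.0475). The ESRP2 value was -1.31 without siRNA 4 in A427 and -1.21 without the A427 control. It was -0.305 without the HCC15 control, -0.27 without siRNA 4 in HCC15 and -0.76 with either siRNA 2 library left out. In limma on the same scales ESRP2 missed the threshold (adjusted p = 0.128 and 0.142). For both genes, the HCC15 percentage was the lower one.

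No other gene of the set passed with siRNA 4. CDH1 was at 90.7% of control in A427 (74.4 to 111) and 72.3% in HCC15 (63.0 to 82.9), EPCAM at 87.9% and 73.6%, and OCLN at 82.0% and 77.7%. CLDN1 was at 90.3% and 107%. CLDN4 in HCC15 was at 154% of control (143 to 166), the one gene of the set above control there with an interval clear of 100%, and at 66.2% (26.8 to 155) in A427. CDH3 was at 101% and 119% (61.3 to 232). None of these 6 passed over both lines, the lowest adjusted p being 0.142 for OCLN in edgeR.

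Among the other junction genes few passed with siRNA 4. Of 21 other tight junction genes 1 rose, 3 fell and 17 did not pass, and of 13 other adherens junction genes 1 rose, 1 fell and 11 did not pass, counts that lie near the 12.5% called over all genes. PRKCI, the atypical protein kinase C of the polarity complex, fell by 1.88 on the log2 scale (SE 0.26, edgeR adjusted p = 0.0038), from 161 to 60.0 TPM in A427 and from 42.2 to 7.21 TPM in HCC15. CXADR, a junctional immunoglobulin-family protein, fell by 1.71 (SE 0.33, adjusted p = 0.0148), from 301 to 176 TPM and from 29.1 to 6.91 TPM. CGNL1 fell by 1.45 (SE 0.22, adjusted p = 0.00591), and JAM3, a junctional adhesion molecule, rose by 0.91 (SE 0.15, adjusted p = 0.00816).

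The adherens junction genes that passed were PVRL1, the nectin-1 gene, which rose (0.68, SE 0.16), and MLLT4, the afadin gene, which fell (-0.52, SE 0.12). No desmosome gene of 11, and no CDH1 repressor of 7, passed with either siRNA in edgeR (5 desmosome genes and 1 repressor were at an unadjusted p under 0.05 with siRNA 4, and 2 and 1 with siRNA 2). PPL, a desmosomal plakin, had the lowest p of the former with siRNA 4 (log2 fold change -0.66, adjusted p = 0.0901). ZEB1 had the lowest of the latter (0.59, SE 0.17, adjusted p = 0.0604), with HCC15 at 25.6 TPM against 15.7 in the control. KRT8, KRT18 and KRT19 fell with siRNA 4 (-0.62, -0.52 and -0.98), and KRT7 was the simple keratin that did not pass.

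Of the other claudins CLDN9, CLDN12 and CLDN16 fell with each siRNA against the shared controls, and 7 of 10 did not pass. The log2 fold changes with siRNA 2 and siRNA 4 were -1.26 and -1.26 for CLDN9, -1.01 and -0.87 for CLDN12, and -1.15 and -1.37 for CLDN16. CLDN16 had at most 1 read in HCC15, so its value is that of A427. JAM3 (0.87) and PVRL1 (0.90) rose with siRNA 2 too.

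The siRNAs were also compared with each other. CDH1, EPCAM, CLDN1, CLDN7, OCLN, TJP1, ESRP1 and ESRP2 were lower with siRNA 4 than with siRNA 2 in both lines, 8 of 10 genes, where 33.0% of all genes were. CLDN4 was higher in both lines, 1 of 10, where 33.9% of all genes were. This direction count uses no test and no control library, and some of its directions were within counting error. Because the 10 genes were chosen with earlier results of these data known, the count is a description only. ESRP1 in HCC15 had 2 reads against 3. In A427, ESRP2 was at 98.55% of the siRNA 2 level (92.4 to 105) and CDH1 at 89.9% (73.4 to 110). CLDN4 in A427 had 10 reads against 3 (81.6% to 1790%). In the test of siRNA 4 against siRNA 2, 1 of 10 genes was lower and 0 were higher, where 16.5% of all genes passed and 8.84% passed as lower.

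That gene was TJP1, lower by 0.63 on the log2 scale (SE 0.12, edgeR adjusted p = 0.0115), at 68.7% of the siRNA 2 level in A427 (66.7 to 70.8) and 60.9% in HCC15 (59.5 to 62.5). It missed the threshold without siRNA 2 in HCC15 (-0.51, adjusted p = 0.0717) or siRNA 4 in HCC15 (-0.64, adjusted p = 0.112). CDH1 differed most, by -1.81 (SE 0.55, adjusted p = 0.0584), at 13.8% in HCC15 (12.3 to 15.4) and 89.9% in A427 (73.4 to 110). Without the A427 library with siRNA 2 the value for CDH1 was -2.78, and without that of HCC15 it was -0.25, each from a lone library with siRNA 2.

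OCLN (-0.39, adjusted p = 0.0783), EPCAM (-0.45, adjusted p = 0.0988), CLDN1 (-0.42, adjusted p = 0.0991) and CLDN7 (-0.60, adjusted p = 0.164) missed the threshold in edgeR. Without siRNA 2 in A427, CDH1, EPCAM, CLDN1, OCLN and TJP1 passed, and without siRNA 4 in A427, CDH1, EPCAM, CLDN7, TJP1 and ESRP2 did, 5 of 10 each time. Over all genes these fits called 1992 of 14406 and 2220 of 14356.

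**Figure D4:**
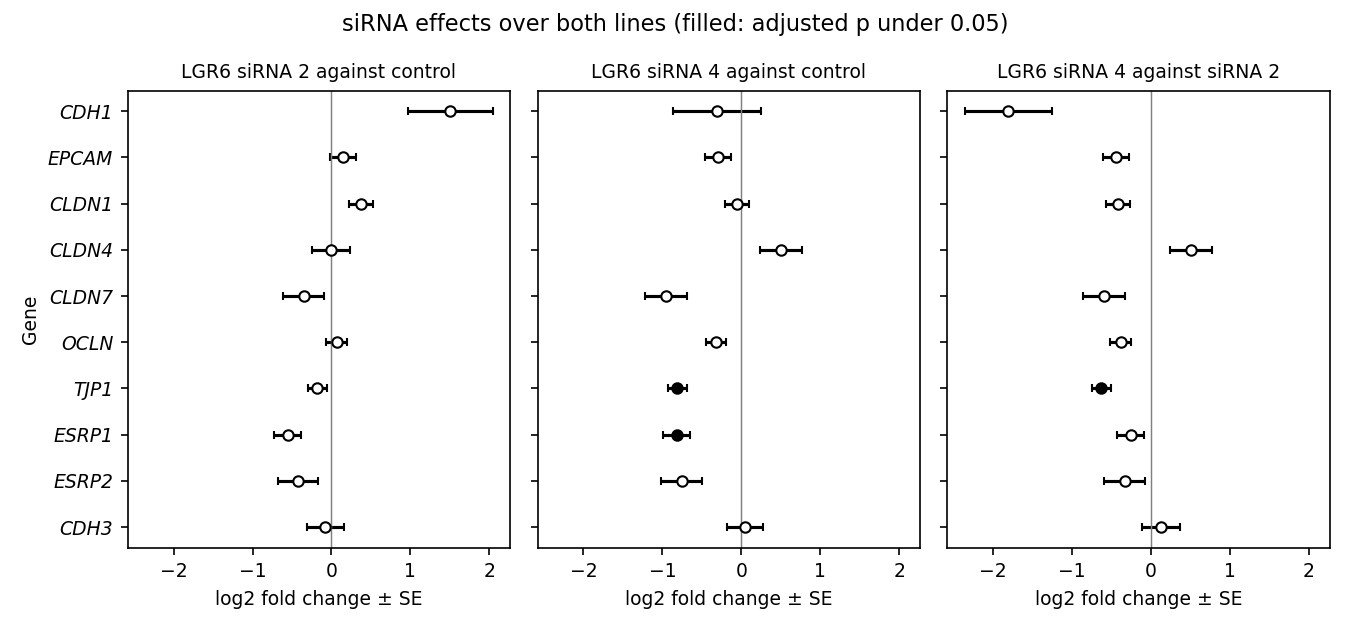
log2 fold change of each gene over both lines with its standard error, for siRNA 2 against control, siRNA 4 against control and siRNA 4 against siRNA 2, filled where the edgeR adjusted p was under 0.05. TJP1 (-0.81 and -0.63) and ESRP1 (-0.82) are the filled points, and CDH1 has the widest bars.

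Among genes around the set, CGN, the cingulin gene of the tight junction plaque, was lower with siRNA 4 than with siRNA 2 (-2.06, SE 0.41, edgeR adjusted p = 0.0137). Its levels were 10.7, 14.2 and 6.43 TPM in A427 (control, siRNA 2, siRNA 4) and 7.51, 16.7 and 1.48 TPM in HCC15. As with CDH1 in HCC15, its siRNA 2 library was the highest and its siRNA 4 library the lowest in each line. PRKCI (-1.65) and CXADR (-1.56) were lower as well, among 4 of 21 other tight junction genes, and 0 were higher. KLF4 was lower (-0.87, SE 0.21, adjusted p = 0.0259), 1 of 10 epithelial activators. All 4 simple keratins were lower, KRT19 by 1.42 and KRT7 by 1.05 on the log2 scale.

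For LGR6 silencing across both lines, with the siRNAs as samples of 1 silenced group, 0% of all genes passed in edgeR and none of the 10 did. At an unadjusted p under 0.05 there were 1512 genes and 1 of the 10, ESRP1. DESeq2 called 387 genes and 0 of the 10. In the alternative called a replicate block each siRNA had its own term, and the mean of the siRNA effects was tested. The difference between the siRNAs was then no longer part of the spread, so this fit does not test whether they agree. With this block 1298 genes passed in edgeR, and of the 10 TJP1 (-0.49, adjusted p = 0.0239) and ESRP1 (-0.69, adjusted p = 0.0260) did. Without the block these were -0.46 (SE 0.25, adjusted p = 0.587) and -0.71 (SE 0.19, adjusted p = 0.309).

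CLDN7, TJP1, ESRP1 and ESRP2 were below the control of their line in 4 of 4 LGR6 siRNA libraries, 4 of 10 genes, where 16.4% of all genes were. None of the 10 was above control in all 4, where 16.2% of all genes were. The libraries of a line share 1 control in this count. It is a description only, since the 10 genes were chosen with earlier results of these data known. ESRP1 in HCC15 had 3 and 2 reads against 5, within counting error, and TJP1 in HCC15 with siRNA 2 was at 97.9% (95.8 to 100).

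The response to silencing was not shown to differ between the lines. In the test of that difference 0% of all genes passed in edgeR, 78 were at an unadjusted p under 0.05 and none of these was among the 10, and DESeq2 and limma called 0 genes. The differences (HCC15 minus A427) reached 1.64 for CDH1 (SE 1.48), 1.58 for CLDN4 (SE 0.79) and -0.88 for ESRP2 (SE 0.51), with adjusted p = 1 for each. The standard errors show how wide these estimates were.

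The spread among the 3 libraries of a line was uneven over the genes. In HCC15 the highest library was 7.26 times the lowest for CDH1, 3.27 times for CLDN7 and 2.71 times for ESRP2, against a median of 1.43 over tested genes. In A427 the ratio was 1.11 for CDH1, 1.43 for CLDN7 and 1.10 for ESRP2, against a median of 1.34. TJP1 was alike in both, at 1.83 and 1.68. The mean log2 CPM of the set, centred on each line, ran 0.23, -0.09 and -0.13 in A427 (control, siRNA 2, siRNA 4). In HCC15 it ran 0.07, 0.35 and -0.42. Each gene counts equally in these means. CLDN4 in A427, at 16, 3 and 10 reads, and CDH1 in HCC15, at 513, 2919 and 362 reads, thus weigh heavily in them.

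Over the 6 libraries the line-centred level of each gene was compared with the mean of the other 9. Pearson's r was 0.94 for OCLN and for EPCAM, 0.79 for TJP1 and 0.78 for CLDN7, and -0.19 for CLDN4. These are descriptions over 6 libraries that share depth and line. The genes outside the set whose line-centred pattern was most like its mean, of 13080 compared, were DMD, the dystrophin gene (r = 0.998), ARVCF, an armadillo-repeat catenin that binds cadherins (r = 0.998), and DUSP9, a phosphatase of MAP kinases (r = 0.996). ARVCF was 4.08, 3.17 and 2.97 CPM in A427 and 7.49, 9.29 and 4.68 CPM in HCC15.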

How the data were processed

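Per the labels' protocols, column-purified RNA (RNeasy, DNase) went into KAPA mRNA HyperPrep libraries. FastQC 0.11.1, STAR 2.5.3a, RSEM 1.3.3 and hg19 are named in the submitters' processing notes. Annotation and strand settings: not given in the sources used here. Deposited by the authors were expected counts, which RSEM estimates and which were rounded to whole numbers here, and between 5.75% and 6.29% of values per library were not whole. TPM are as deposited by the authors.

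Tests used edgeR 4.0.16 in R 4.3.3 (TMM, glmQLFit, glmQLFTest). Differences between lines and between siRNAs came from an additive model of line and siRNA (2 residual degrees of freedom), silencing from line plus arm (3) and its difference from line by arm (2). CPM are TMM-scaled, and 0.1 was added before logs for centred levels. Alternatives were RLE scaling, no filter, DESeq2 1.42.0, limma 3.58.1 on log2(TPM + 1) and log2(TPM + 0.1) (genes with at least 1 TPM in 2 libraries) and each library left out. For silencing, the siRNA number as a block was another, with a term for each siRNA and their mean tested. Per the labels, a number stands for 1 reagent used in either line, and the siRNA 4 minus siRNA 2 difference correlated between lines over genes at r = 0.527, so they pair the samples. No 2 libraries agreed within sampling noise, with chi-square over degrees of freedom at 56.9 or more. The tests were tested on simulated data, where false calls were more frequent than the threshold implies. Adjusted p values near the threshold are thus to be read with care. In those data the line by arm test missed most of the smaller changes.

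The members and gene lists were chosen with earlier results of these data known. All 10 genes and LGR6 were named. From each other list up to 3 genes past the threshold with the largest change and a mean CPM of at least 1, or up to 2 with the smallest p, could be named, and repressors and activators of CDH1 by level. VIM, SNAI2 and the other genes given for the HCC15 library with siRNA 2 were named after their values were seen.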

Additional observations from a re-analysis of the deposited data

How the results depend on the processing

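Between the lines, all 10 genes passed in the same direction under every alternative run. No value that changed sign passed the threshold. With siRNA 2, limma on log2(TPM + 0.1) called 678 genes (1104 in edgeR). With siRNA 4, DESeq2 called 4 of the 10 genes and limma 1 on either TPM scale (2 in edgeR), and limma on log2(TPM + 0.1) called 1145 genes (1814 in edgeR). For silencing across both lines, where edgeR called 0 genes, DESeq2 called 387, limma 1 on either TPM scale and the replicate block 1298, with 2 of the 10. The block takes the difference between the siRNAs out of the spread. The cause of the other gaps was not tested. The block changed no other call.

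Leaving out 1 library at a time gave 4 to 1438 genes and 0 to 1 of the 10 with siRNA 2 (4 without the HCC15 control), 97 to 2098 and 0 to 3 with siRNA 4 (97 without the HCC15 control), and 439 to 2220 and 0 to 5 for siRNA 4 against siRNA 2 (2395 with all libraries, 439 without siRNA 4 in HCC15). A lone library is assumed to vary like the others. The line by arm test, of whether silencing acted unequally in HCC15 and A427, could not be fitted without a control library.

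Signs changed, all near 0 or on few reads, for CLDN4 with siRNA 2 (0.00 in edgeR, 0.0266 with RLE, 0.0077 with no filter), CDH3 with siRNA 2 (-0.08; 0.0864 in DESeq2, 0.0143 and 0.18 in limma) and CDH3 for siRNA 4 against 2 (0.12; -0.10 on log2(TPM + 0.1)). For silencing they changed for CLDN4 (0.02 in edgeR, -0.18 in DESeq2, -0.34 on log2(TPM + 0.1)) and CDH3 (0.07 in edgeR, -0.0167 with the block). In the line by arm test they changed for ESRP1 (-0.34 in edgeR, 0.59 and 0.29 in limma). Log2 fold changes that turned when 1 library was left out ranged, with siRNA 2, over -1.70 to 0.15 (CLDN4), -0.21 to 0.48 (CDH3), -0.82 to 0.0898 (ESRP2), -0.075 to 2.46 (CDH1), -0.12 to 0.42 (EPCAM) and -0.0937 to 0.22 (OCLN). With siRNA 4 they ranged over -1.09 to 0.49 (CDH1), -0.22 to 0.21 (CLDN1), -0.13 to 0.51 (CDH3) and -0.93 to 0.68 (CLDN4), and for siRNA 4 against 2 over -0.44 to 0.26 (CDH3) and -0.91 to 0.093 (ESRP2). For silencing they ranged over -0.26 to 0.10 (EPCAM), -1.16 to 0.43 (CLDN4), -0.25 to 1.61 (CDH1), 0.00 to 0.45 (CLDN1), -0.0938 to 0.45 (CDH3) and -0.26 to 0.0036 (OCLN). In the line by arm test of silencing they ranged over -0.17 to 0.56 (TJP1), -0.41 to 2.47 (CDH1) and -0.32 to 0.49 (EPCAM). The ranges there were -0.19 to 0.40 for OCLN and -1.27 to 0.13 for CLDN7.

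Depth limits LGR6 and CLDN4 in A427 and ESRP1 and CDH3 in HCC15, each with 31 reads or fewer per library.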
